A study of Mus musculus with 6 samples.

Results

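The genes described here are 35 genes of the ATF4 stress response and of serine, proline, folate and methionine metabolism. They were taken from the table by gene symbol, and all 35 were among the 14327 genes of the FPKM table and passed the minimum for testing. For description they were put in 3 blocks: 15 genes of ATF4, its partners and its targets in stress and amino acid supply, 5 genes of serine and proline synthesis, and 15 genes of folate, glycine and methionine metabolism.

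RNA had been sequenced from 6 libraries of neurospheres, which are free-floating clusters of neural stem and progenitor cells. They had been grown with B27, N2, EGF and bFGF from mouse hippocampus taken at postnatal day 0. In 3 libraries the mice were wild type (WT), and in 3 they were labelled as conditional knockouts (cKO) of Slc22a17, a cell surface receptor for lipocalin 2. The series names iron balance and postnatal neurogenesis as its subject. The driver of the deletion, the strain, the sex and whether a group's libraries derive from separate mice or cultures were not given in the sources used here, so p-values measure only how these libraries vary, which may be technical variation.

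ATF4 is a transcription factor whose mRNA is translated more when the initiation factor eIF2 is phosphorylated, as happens when amino acids or heme run short or when protein folding or mitochondria are disturbed. It binds composite C/EBP-ATF elements together with C/EBP partners and switches on genes for amino acid uptake, amino acid synthesis and tRNA charging. Serine is made from a glycolytic intermediate, and its side carbon is passed to tetrahydrofolate, which carries single carbons to purine, thymidylate and methionine synthesis. In brain, radial glia and astrocytes are rich in enzymes of serine synthesis and in the folate enzyme ALDH1L1.

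The letters TGATGNAA, the core of the composite element, were searched on both strands (TTNCATCA on the other) in the 250 bases before each annotated start, using RefSeq windows of GRCm38.p6. Of the 35 genes 31 had a window, and Aldh1l2, Cth, Eif4ebp1 and Slc7a5 had no entry. The letters were found in 4 of these 31 genes (12.9%), against 2.23% of the 9386 tested genes with a window and 3.45% of all 32851 windows. The 4 windows are shown because they hold these letters, which are printed in capitals. A match is a description of the letters and not a binding site. The Asns window is chr6:7693210-7693459 on the minus strand, with TGATGAAA starting 23 bases before the gene. The Chac1 window is chr2:119350992-119351241 on the plus strand, with TTGCATCA starting 193 bases before. The Nupr1 window is chr7:126625471-126625720 on the minus strand, with TTGCATCA starting 110 bases before. The Pycr1 window is chr11:120643749-120643998 on the minus strand, with TGATGCAA starting 103 bases before.
Asns: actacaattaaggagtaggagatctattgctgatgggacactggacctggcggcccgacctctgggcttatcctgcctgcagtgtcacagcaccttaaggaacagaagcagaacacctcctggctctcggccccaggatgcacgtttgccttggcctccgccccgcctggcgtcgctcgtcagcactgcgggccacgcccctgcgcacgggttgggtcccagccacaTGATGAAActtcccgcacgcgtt
Chac1: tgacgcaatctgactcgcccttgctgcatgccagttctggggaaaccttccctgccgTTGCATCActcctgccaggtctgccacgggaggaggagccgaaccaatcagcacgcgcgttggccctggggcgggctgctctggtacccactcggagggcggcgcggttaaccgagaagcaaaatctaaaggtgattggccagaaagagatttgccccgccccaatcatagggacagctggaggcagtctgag
Nupr1: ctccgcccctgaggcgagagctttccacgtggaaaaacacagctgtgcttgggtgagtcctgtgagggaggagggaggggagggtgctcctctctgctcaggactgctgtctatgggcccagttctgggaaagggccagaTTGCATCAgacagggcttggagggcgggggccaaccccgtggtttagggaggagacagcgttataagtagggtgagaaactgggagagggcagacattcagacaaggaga
Pycr1: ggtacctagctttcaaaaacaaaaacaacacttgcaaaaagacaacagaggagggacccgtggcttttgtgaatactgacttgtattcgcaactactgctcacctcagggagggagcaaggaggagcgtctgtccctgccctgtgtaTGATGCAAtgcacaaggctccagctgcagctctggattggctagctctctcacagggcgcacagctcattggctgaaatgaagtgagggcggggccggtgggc

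Values are FPKM, fragments counted per unit of transcript length and library size, so levels can be compared between genes. Throughout, 3 values of a group stand in the order of replicates 1, 2 and 3. Fold changes are on the scale log2(FPKM + 1), cKO-labelled minus WT, from a limma fit over the 11596 genes averaging at least 1 FPKM, with p-values adjusted over all of them and a threshold of 0.05. This scale understates changes of genes with low values, and FPKM carries no read totals, so the depth is unknown.

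The labels were first checked on Slc22a17 itself, which was at 181, 169 and 204 FPKM in WT against 164, 166 and 187 FPKM in the cKO-labelled libraries. The groups overlapped, and the cKO-labelled level reached 93.5% of WT with a 95% interval of 81.6% to 107% (exact permutation test, two-sided p = 0.5, where 3 against 3 cannot go below 0.1). Whether the deleted part lies within the counted transcript was not given in the sources used here, so the group is called by its label throughout. The Y-linked transcripts Ddx3y and Eif2s3y summed to 0.10, 0.07 and 25.87 FPKM in WT and to 50.46, 43.8 and 51.2 FPKM in the cKO-labelled libraries. Group and Y-linked share therefore cannot be told apart. Neural stem cell markers (Nes, Sox2, Fabp7 and 7 others) summed to 3912 to 4111 FPKM in WT and 3613 to 3920 FPKM in the cKO-labelled libraries. Of these 10 markers 8 were lower and 2 higher in mean (44.5% of all genes were higher). Hes1 alone was apart and lower (10%, against 10.2% of all genes). Of 8 oligodendrocyte lineage markers 6 were lower and 2 higher, with 1 apart and lower (12.5%). No marker of these 2 lists passed. Of the neuron markers Dcx, Rbfox3, Snap25, Syt1 and Stmn2 stayed under the minimum for testing. Of the other neuron markers Map2 averaged 76.4 ± 3.49 FPKM in WT against 75.6 ± 7.94 FPKM in the cKO-labelled libraries (SD, n = 3 each). Tubb3 was low but higher with no overlap of the groups, at 4.02 ± 0.536 FPKM against 5.15 ± 0.230 FPKM (SD, n = 3 each; limma adjusted p = 0.279). Of all genes 7.07% were apart and higher.

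None of the 35 genes passed the threshold in limma, in a comparison where 3 of 11596 genes did (0.0259%). At an unadjusted p under 0.05 stood 4 of them (11.4%), against 12.3% of all tested genes: Psph with a higher mean in the cKO-labelled libraries, and Eif4ebp1, Shmt1 and Ahcy with a lower one. Psph was the single gene whose groups did not overlap and was higher (7.07% of all genes did so), 0 were apart and lower (10.2% of all genes), and the share apart in either direction was 2.86%, against 17.2% of all genes. The mean was higher in the cKO-labelled libraries for 13 genes and lower for 22, with a median log2 fold change of -0.084, against -0.015 over all tested genes.

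The intervals limit what the data allow. The 95% interval of the fold change, taken on FPKM + 1, lay within 1.25-fold of no change for 14 of the 35 genes. It lay within 1.5-fold for 28 and within 2-fold for 32. This scale understates changes of genes with low values, such as Pycr1 and Cth. The 7 genes outside 1.5-fold were Ddit3, Nupr1, Cebpb, Trib3, Chac1, Eif4ebp1 and Aldh1l2, and of these Ddit3, Nupr1 and Trib3 were also outside 2-fold. All but Aldh1l2 belong to the ATF4 block.

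**Figure D1:**
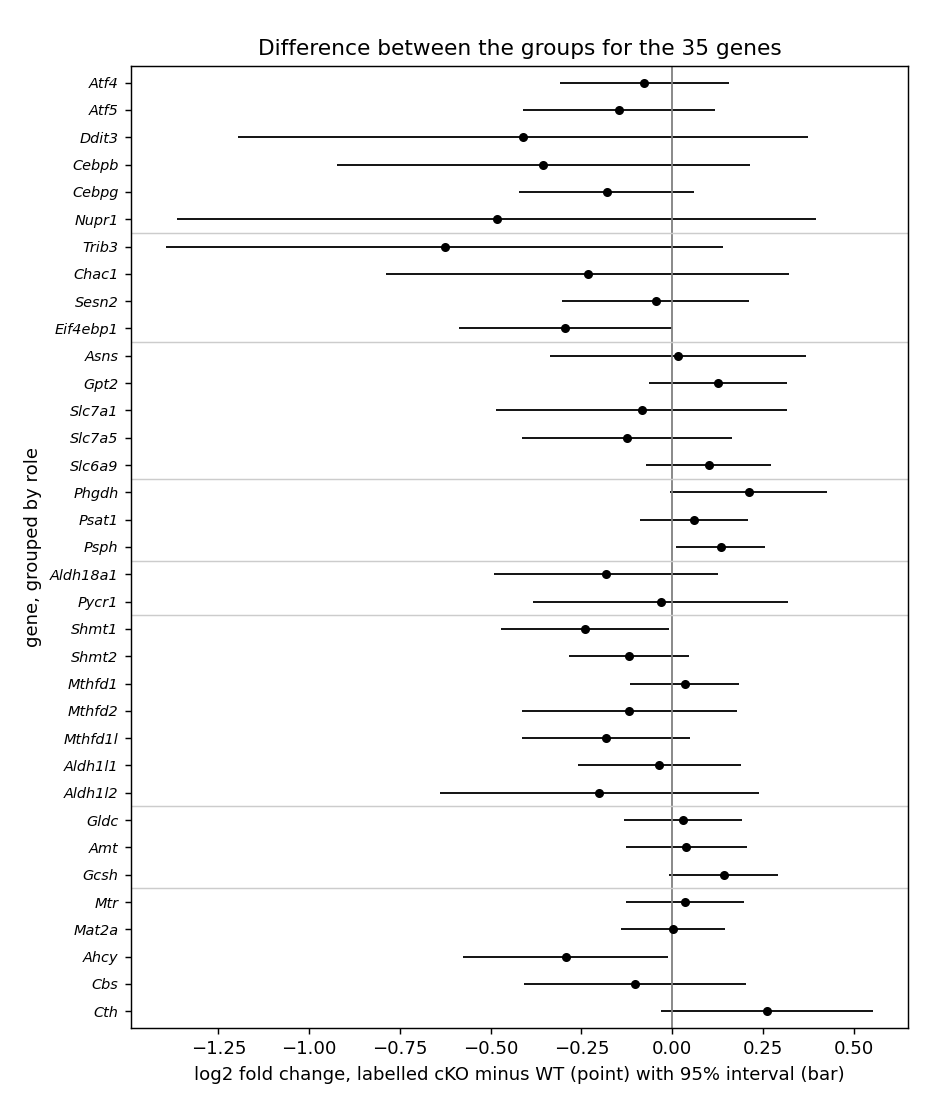
Difference between the groups for each of the 35 genes, grouped by role: the point is the log2 fold change on log2(FPKM + 1), cKO-labelled minus WT, and the bar its 95% interval from limma (3 libraries a group). Trib3, Nupr1 and Ddit3 have the longest bars, and the bars of Psph, Eif4ebp1, Shmt1 and Ahcy do not reach 0 although none of the 4 passed after adjustment.

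Levels spanned a wide range. Aldh1l1, which oxidises the formyl group of formyl-tetrahydrofolate to CO2 and so frees tetrahydrofolate, was the most abundant at a mean of 319 FPKM over the 6 libraries. It was followed by Mat2a at 249 FPKM, Gpt2 at 222 FPKM, Psat1 at 215 FPKM and Phgdh at 201 FPKM. At the low end were Pycr1 at 1.83 FPKM, Trib3 at 4.54 FPKM, Cth at 5.27 FPKM, Mtr at 6.26 FPKM and Cebpb at 6.32 FPKM. The median over all tested genes was 12.3 FPKM.

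**Figure D2:**
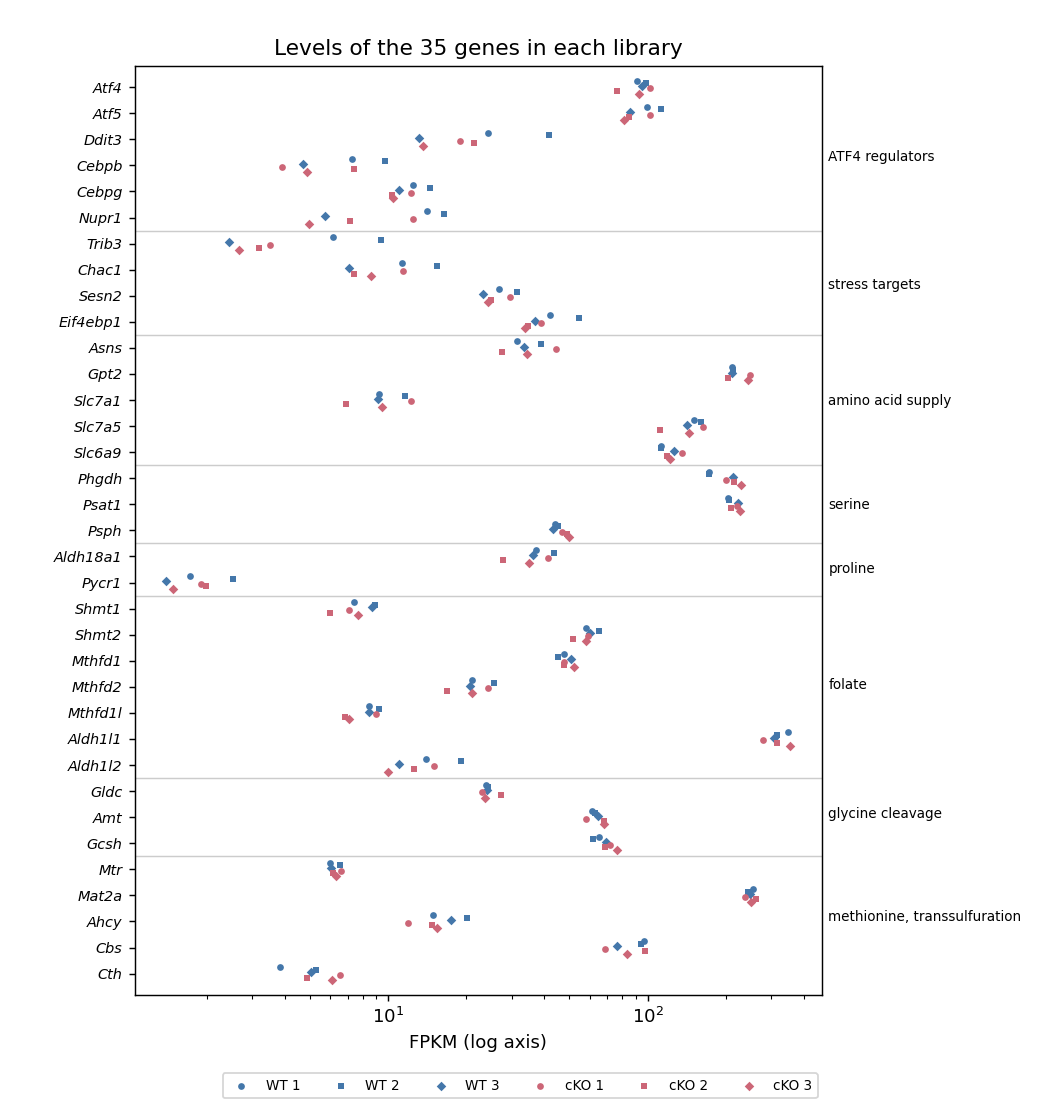
FPKM of each of the 35 genes in the 6 libraries on a log axis, grouped by role, with 1 point per library (blue WT, red cKO-labelled, a symbol per replicate). Levels run from 1.40 FPKM for Pycr1 to 355 FPKM for Aldh1l1, and the 2 colours overlap in every row but that of Psph.

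ATF4 and the transcription factors around it were all lower in mean in the cKO-labelled libraries, and none passed the test (0 of 6 called, median log2 fold change -0.27). Atf4 (chromosome 15, 80255184 to 80257545 in GRCm38) was at 90.6, 98.4 and 94.97 FPKM in WT against 102.16, 76.1 and 92.8 FPKM in the cKO-labelled libraries. The highest and the lowest library were both cKO-labelled, with WT between them. The level was 94.8% of WT (interval 80.8% to 111%, log2 fold change -0.08, SE 0.10, adjusted p = 0.815), and without cKO replicate 2 the sign turned to a log2 fold change of 0.04. This is the transcript; ATF4 protein is set largely at translation, which these data do not measure.

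Atf5, a related factor that is also controlled at translation, read 99.1, 113 and 85.8 FPKM in WT against 102.18, 85.1 and 80.9 FPKM in the cKO-labelled libraries. WT replicate 2 was highest and the groups overlapped (log2 fold change -0.15, adjusted p = 0.657). Ddit3, the C/EBP-related factor CHOP that accompanies prolonged stress, gave 24.3, 41.6 and 13.2 FPKM in WT against 18.9, 21.4 and 13.6 FPKM in the cKO-labelled libraries. WT alone covered the whole range, from the highest to the lowest of the 6 libraries. The log2 fold change was -0.41 (SE 0.34, adjusted p = 0.685), which leaves 43.6% to 129.6% of the WT level within the interval. Ddit3 overlaps Mars and Mbd6 on the chromosome, Atf5 overlaps Nup62 and Il4i1b, Mat2a overlaps Ggcx and Shmt2 overlaps Ndufa4l2. Slc6a9 shares transcript with Ccdc24. The reads of these genes may not all be their own.

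Cebpg, a dimer partner of ATF4, gave 12.5, 14.5 and 10.98 FPKM in WT against 12.2, 10.4 and 10.5 FPKM in the cKO-labelled libraries. The lowest WT library lay among the cKO-labelled ones (log2 fold change -0.18, SE 0.10, adjusted p = 0.528), and without WT replicate 2 the log2 fold change was -0.0853, without WT replicate 3 -0.27. Cebpb, another C/EBP factor, spread 2.49-fold between its highest and lowest library, from 9.75 FPKM in WT replicate 2 to 3.91 FPKM in cKO replicate 1 (adjusted p = 0.611). Nupr1, a small stress-induced chromatin protein, gave 14.2, 16.5 and 5.71 FPKM in WT against 12.5, 7.13 and 4.94 FPKM in the cKO-labelled libraries. Both groups held high and low libraries, and the log2 fold change was -0.48 (SE 0.38, adjusted p = 0.665).

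The stress targets of ATF4 included Trib3, the gene with the largest difference in mean and also the widest spread of the 35. All 4 were lower in mean in the cKO-labelled libraries, with a median log2 fold change of -0.26, and none passed the test. Trib3 (chromosome 2, 152337425 to 152344060), a pseudokinase that feeds back on ATF4 and CHOP, was at 6.11, 9.37 and 2.44 FPKM in WT against 3.50, 3.17 and 2.67 FPKM in the cKO-labelled libraries. WT replicates 1 and 2 stood above all others, while WT replicate 3 was the lowest of the 6, so that the highest and lowest libraries differed 3.84-fold and both were WT. The log2 fold change was -0.63 (SE 0.34, adjusted p = 0.489). Leaving out WT replicate 2 gave -0.27 and leaving out WT replicate 3 gave -1.07, and it turned to 0.25 when the cKO-labelled libraries were set against WT replicate 3 alone and to 1.29 in a fit that held the Y-linked level as a covariate.

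Chac1, which breaks down glutathione, had 11.3, 15.5 and 7.08 FPKM in WT against 11.5, 7.42 and 8.63 FPKM in the cKO-labelled libraries. Again WT replicate 2 was highest and WT replicate 3 lowest (log2 fold change -0.23, adjusted p = 0.757). Sesn2, a leucine sensor that restrains mTORC1, ranged from 23.3 to 31.5 FPKM in WT and from 24.2 to 29.4 FPKM in the cKO-labelled libraries (adjusted p = 0.912). Eif4ebp1 (chromosome 8, 27260327 to 27275656), the translation repressor 4E-BP1, was at 42.0, 54.6 and 37.0 FPKM in WT against 38.8, 34.5 and 33.8 FPKM in the cKO-labelled libraries. Only the first cKO-labelled library exceeded the lowest WT library. The level was 81.5% of WT (interval 66.5% to 99.9%, log2 fold change -0.29, SE 0.13, unadjusted p = 0.0494, adjusted p = 0.405). Without WT replicate 2 the log2 fold change of Eif4ebp1 was -0.14. With the Y-linked covariate the sign turned to a log2 fold change of 0.21 for Eif4ebp1 and to 0.17 for Cebpg.

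**Figure D3:**
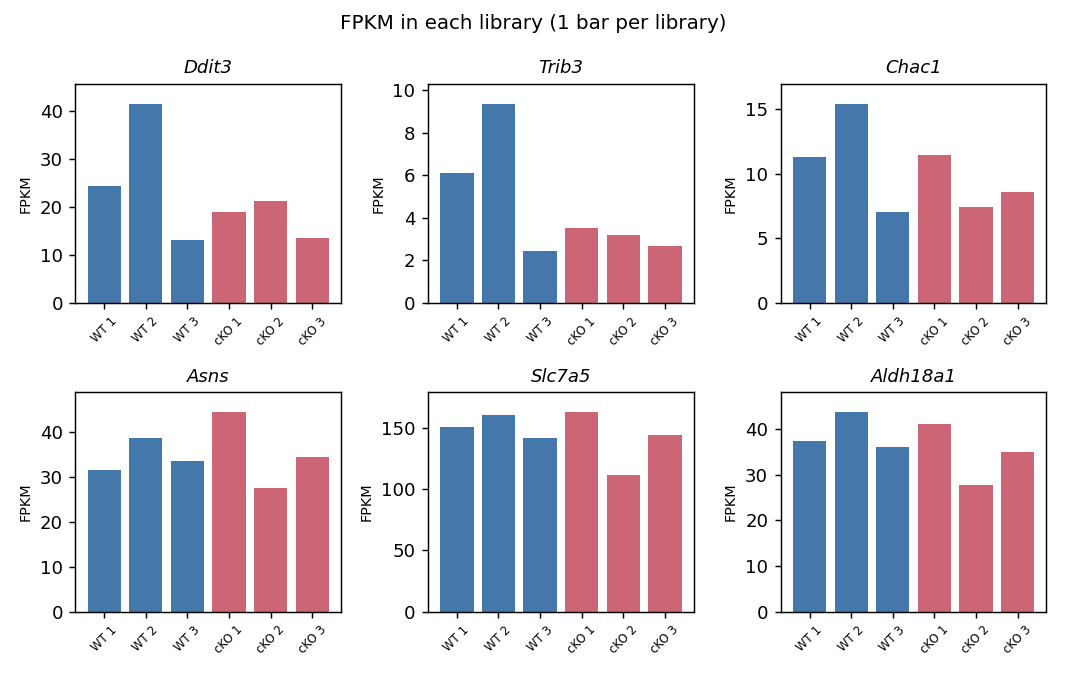
FPKM of 6 genes of the ATF4 and proline lists in each library, 1 bar per library from 0, blue for WT and red for cKO-labelled. Ddit3, Trib3 and Chac1 differ most within WT, from a high replicate 2 to a low replicate 3, whereas Asns, Slc7a5 and Aldh18a1 have their lowest bar at cKO replicate 2 and, within the cKO-labelled group, their highest at replicate 1.

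Of the 5 genes of amino acid supply 3 were higher and 2 lower in mean, with a median log2 fold change of 0.01. Asns, asparagine synthetase and a standard readout of ATF4, was at 31.5, 38.7 and 33.5 FPKM in WT against 44.4, 27.5 and 34.4 FPKM in the cKO-labelled libraries. The cKO-labelled libraries held both the highest and the lowest value. The log2 fold change was 0.01 (SE 0.15, adjusted p = 0.982), with an interval from 79.2% to 129% of the WT level.

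Gpt2, the mitochondrial alanine aminotransferase, was nearly constant in WT at 211 to 212 FPKM and ranged from 203 to 249 FPKM in the cKO-labelled libraries (log2 fold change 0.13, adjusted p = 0.590). Slc7a5, the large neutral amino acid transporter LAT1, read 151, 160.3 and 141 FPKM in WT against 163, 112 and 145 FPKM in the cKO-labelled libraries. Its lowest library was cKO replicate 2, and the WT values lay inside the cKO-labelled range (adjusted p = 0.748). Slc7a1, the cationic amino acid transporter CAT1, ranged from 6.90 to 12.3 FPKM in the cKO-labelled libraries, around a WT range of 9.15 to 11.6 FPKM (adjusted p = 0.890). Slc6a9, the glycine transporter GLYT1, ranged from 112 to 126 FPKM in WT and from 119 to 136 FPKM in the cKO-labelled libraries (adjusted p = 0.641).

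Within the groups most ATF4 genes shared their high libraries and their low WT library. WT replicate 2 was the highest WT library for 14 of the 15 genes of the block, where the same held for 41.1% of all tested genes, and WT replicate 3 was the lowest for 12 of 15 (35.3% of all genes). On the cKO side, replicate 1 was the highest for 13 of 15 (36.1% of all genes). The lowest cKO-labelled library was divided, with replicate 2 for 8 of 15 (38% of all genes) and replicate 3 for 6 (27.7%). Of the 4 stress targets 3 had replicate 3 lowest. In amino acid supply all 5 genes had cKO replicate 1 highest and replicate 2 lowest, an order seen in 20.8% of all genes. As differences from the WT mean, the block's median was 0.00, 0.20 and -0.20 (log2) in WT and 0.11, -0.31 and -0.24 in the cKO-labelled libraries. The gap between WT replicates 2 and 3 thus exceeded the block's median fold change between the groups.

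The lower mean of the block moved with single libraries of either group. Its median log2 fold change was -0.15, with 3 of 15 genes higher. Without WT replicate 2 the median was -0.05 and 6 genes were higher, and without WT replicate 3 it was -0.25 and 2 were higher. Leaving out cKO replicate 1 gave -0.25 with 2 higher, and leaving out cKO replicate 2 gave -0.11 with 6 higher. Against WT replicate 3 alone, the WT library with Y-linked transcripts, 11 of 15 were higher in the cKO-labelled libraries, with a median of 0.05. With the Y-linked covariate 10 of 15 were higher, with a median of 0.21. That fit leans on the same library, because the Y-linked sum was 0.10 and 0.07 FPKM in WT replicates 1 and 2 against 25.87 FPKM in WT replicate 3. It is therefore not separate from the comparison with WT replicate 3 alone, and the lowest adjusted p of the 35 genes in it was 0.921 (limma). The median within-group SD was 0.21 (log2) for this block and 0.10 for all tested genes, although the block's genes were the more abundant, with a median level of 26.7 FPKM. The source of this library order was not tested.

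**Figure D4:**
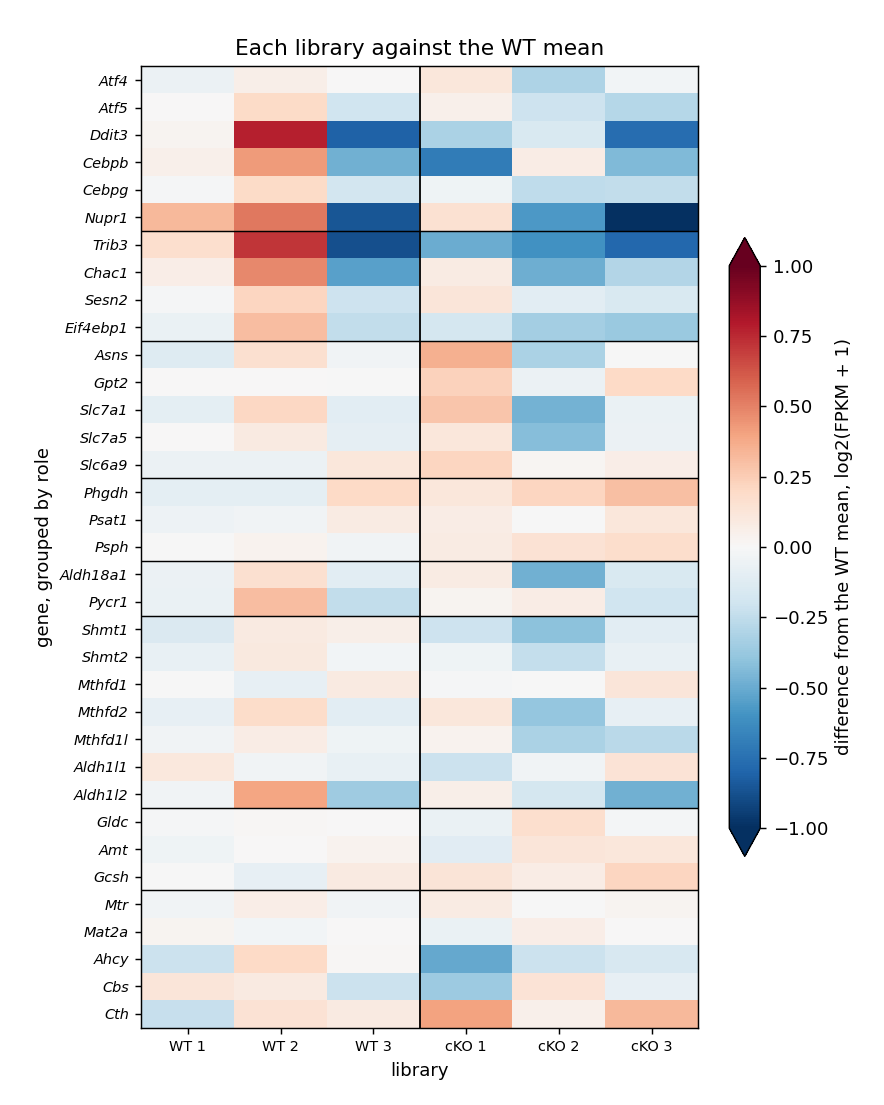
Difference of each library from the WT mean on log2(FPKM + 1) for the 35 genes, with red above and blue below the WT mean and colours capped at 1 in either direction. In the rows from Atf5 to Eif4ebp1 WT 2 is red and WT 3 blue, and in the rows from Phgdh to Psph the colours are paler and the cKO-labelled columns lie close to or above the WT mean.

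The upstream and downstream parts of the pathway, from lists written alongside the members, gave no call. Of 8 genes for eIF2, its kinases, its phosphatase subunits and the kinase inhibitor Impact, 5 were higher and 3 lower in mean. Ppp1r15a, the stress-induced phosphatase subunit GADD34, averaged 13.1 ± 3.28 FPKM in WT against 10.8 ± 1.12 FPKM in the cKO-labelled libraries (SD, n = 3 each; limma adjusted p = 0.596). Impact averaged 19.6 ± 1.45 FPKM and 21.7 ± 3.29 FPKM (SD, n = 3 each; limma adjusted p = 0.666).

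Among 27 other tested ATF4 targets 7 were higher (25.9%, against 44.5% of all genes) and 20 lower. None passed the threshold (0 of 27), and the median log2 fold change was -0.05. The groups were apart and lower for 2 (7.41%, against 10.2% of all genes) and apart and higher for 0. Slc7a11, the cystine importer, averaged 9.22 ± 0.998 FPKM in WT against 13.02 ± 3.13 FPKM in the cKO-labelled libraries (SD, n = 3 each; limma adjusted p = 0.297). Slc38a2, the glutamine and alanine transporter SNAT2, averaged 42.3 ± 7.70 FPKM in WT against 33.4 ± 4.54 FPKM in the cKO-labelled libraries (SD, n = 3 each; limma adjusted p = 0.381). The 12 aminoacyl-tRNA synthetases in this list, which charge tRNAs and are classic ATF4 targets, stayed between log2 fold changes of -0.15 and 0.08, 2 higher and 10 lower. These 27 genes mostly shared the high libraries of the block: WT replicate 2 was the highest WT library for 21 and cKO replicate 1 the highest of its group for 18.

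The 3 enzymes that make serine were each higher in mean in the cKO-labelled libraries, by small amounts, and none passed the test. Phgdh, the first and committing enzyme, was at 173, 173 and 213 FPKM in WT against 200.45, 216 and 229 FPKM in the cKO-labelled libraries. WT replicates 1 and 2 were lowest, while WT replicate 3 lay within the cKO-labelled range. The level was 116% of WT (interval 99.6% to 134%, log2 fold change 0.21, SE 0.09, unadjusted p = 0.0556, adjusted p = 0.419), and with the Y-linked covariate the log2 fold change turned to -0.22. Phgdh has 17 near-identical copies in the genome, nearly all processed pseudogenes, at 90% identity or more over at least 300 bases, and how the authors' counting divided such reads was not given in the sources used here.

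Psat1, the aminotransferase of the second step, was at 204, 206 and 223 FPKM in WT against 221, 209.8 and 227 FPKM in the cKO-labelled libraries. The ranges overlapped (log2 fold change 0.06, adjusted p = 0.768), and the interval ran from 94% to 116% of WT. Psph (chromosome 5, 129765558 to 129787443), the phosphatase that releases serine, was at 44.0, 45.1 and 43.1 FPKM in WT against 46.7, 48.7 and 49.8 FPKM in the cKO-labelled libraries. Every cKO-labelled library lay above every WT library, the only such gene of the 35. The level was 109.7% of WT (interval 101% to 119%, log2 fold change 0.13, SE 0.05, unadjusted p = 0.0353, adjusted p = 0.371). Psph shares 452 identical bases of annotated transcript with its neighbour Cct6a, a chaperonin subunit, which was at 83.8, 87.1 and 91.1 FPKM in WT against 83.7, 85.2 and 86.3 FPKM in the cKO-labelled libraries (adjusted p = 0.839).

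Proline synthesis was lower in mean for both of its genes. Aldh18a1, which makes the proline precursor from glutamate, was at 37.3, 43.7 and 36.1 FPKM in WT against 41.2, 27.6 and 34.9 FPKM in the cKO-labelled libraries. WT replicate 2 was the highest of the 6 libraries and cKO replicate 2 the lowest (log2 fold change -0.18, SE 0.13, adjusted p = 0.634). Within the cKO-labelled group replicate 1 was highest and replicate 2 lowest, as for 8 of the 15 genes of the ATF4 block. Without cKO replicate 2 the log2 fold change was -0.0351, without cKO replicate 1 it was -0.31 and without WT replicate 2 it was -0.10. Pycr1, the mitochondrial reductase of the last step and one of the genes with the element letters, was low at 1.72, 2.52 and 1.40 FPKM in WT against 1.90, 1.99 and 1.48 FPKM in the cKO-labelled libraries. The cKO-labelled values lay inside the WT range (log2 fold change -0.03, adjusted p = 0.960).

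Of 8 other tested genes of serine and proline handling, 4 were higher and 4 lower and 0 passed. The groups did not overlap for 3 of the 8 (37.5%, against 17.2% of all genes), 2 higher and 1 lower. Prodh, which breaks proline down, was at 25.2, 19.5 and 24.7 FPKM in WT against 29.0, 36.2 and 37.9 FPKM in the cKO-labelled libraries. Every cKO-labelled library lay above WT (log2 fold change 0.55, SE 0.12, adjusted p = 0.194), which is a wider difference than that of any serine or proline gene among the 35. Sdsl, a serine dehydratase-like gene, was also apart and higher, at 9.02, 6.96 and 9.70 FPKM in WT against 11.08, 10.7 and 10.7 FPKM in the cKO-labelled libraries (adjusted p = 0.297). Sds, serine dehydratase itself, was apart and lower, at 1.41, 1.42 and 1.65 FPKM in WT against 1.12, 1.40 and 0.30 FPKM in the cKO-labelled libraries (adjusted p = 0.477).

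Markers of astrocytes were likewise mostly higher in mean. Of 8 markers (Gfap, Aqp4, S100b, Aldoc, Gja1, Gjb6, Slc1a2 and Sparcl1) 7 were higher in mean in the cKO-labelled libraries (44.5% of all genes were), 4 were apart and higher (7.07% of all genes) and 0 passed, the lowest adjusted p being 0.103. Their summed level was 3818 to 5103 FPKM in WT and 5265 to 5548 FPKM in the cKO-labelled libraries, and none of them was at 0 in any library. These markers were chosen with earlier results of these data known, and their part in the serine values was not tested. In bulk RNA, more cells of a type and more RNA per cell cannot be told apart.

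**Figure D5:**
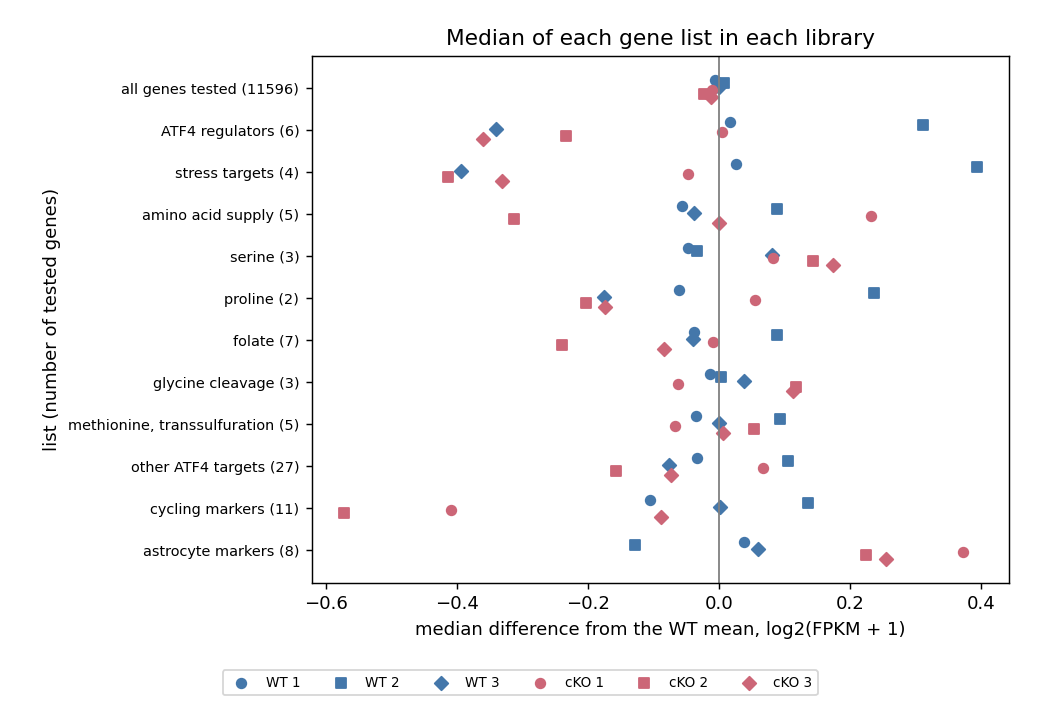
Median difference from the WT mean, on log2(FPKM + 1), of each gene list in each library, with 1 symbol per library and the number of tested genes in brackets. The stress targets run from 0.39 in WT 2 to -0.41 in cKO 2 with WT 3 at -0.39. The median over all 11596 tested genes stays close to 0 in every library, and is no measure of how far a median of 4 genes may vary.

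Folate enzymes were lower in mean for 6 of 7 genes, with a median log2 fold change of -0.12 and no call. Shmt1 (chromosome 11, 60788897 to 60811265), the cytosolic enzyme that moves the carbon of serine to tetrahydrofolate, was at 7.40, 8.88 and 8.67 FPKM in WT against 7.07, 5.99 and 7.64 FPKM in the cKO-labelled libraries. A single cKO-labelled library exceeded the lowest WT library. The level was 84.7% of WT (interval 72.1% to 99.4%, log2 fold change -0.24, SE 0.10, unadjusted p = 0.0436, adjusted p = 0.391), and the log2 fold change was -0.15 without cKO replicate 2 and -0.11 with library weights. Shmt2, its mitochondrial counterpart, was at 57.9, 65.1 and 59.8 FPKM in WT against 59.1, 51.4 and 57.7 FPKM in the cKO-labelled libraries. Only cKO replicate 1 reached into the WT range (log2 fold change -0.12, adjusted p = 0.553). The mitochondrial transcript was the more abundant in every library, with a Shmt2 to Shmt1 ratio of 7.35 ± 0.461 in WT and 8.16 ± 0.540 in the cKO-labelled libraries (SD, n = 3 each).

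The enzymes that interconvert folate-bound carbons also overlapped between the groups. Mthfd1, the cytosolic trifunctional enzyme, was at 47.6, 44.99 and 50.8 FPKM in WT against 47.4, 47.5 and 51.9 FPKM in the cKO-labelled libraries. The ranges overlapped, with WT replicate 2 lowest and cKO replicate 3 highest (log2 fold change 0.03, adjusted p = 0.880). Mthfd2, a mitochondrial enzyme of proliferating cells and an ATF4 target, was at 21.1, 25.6 and 20.8 FPKM in WT against 24.3, 16.9 and 21.1 FPKM in the cKO-labelled libraries. WT replicate 2 was the highest and cKO replicate 2 the lowest library (log2 fold change -0.12, SE 0.13, adjusted p = 0.768). Replicate 2 was the lowest cKO-labelled library for 8 of the 15 genes of the ATF4 block. Mthfd1l, which releases formate from mitochondria, ranged from 8.46 to 9.26 FPKM in WT and from 6.81 to 8.97 FPKM in the cKO-labelled libraries (log2 fold change -0.18, adjusted p = 0.503).

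The pair of formyl-tetrahydrofolate dehydrogenases differed in level and in spread. Aldh1l1, cytosolic and widely used to mark astrocytes, was at 347, 314 and 306 FPKM in WT against 278, 314 and 355 FPKM in the cKO-labelled libraries. The cKO-labelled libraries held both extremes (log2 fold change -0.04, SE 0.10, adjusted p = 0.922), although 7 of the 8 astrocyte markers above were higher in mean. Aldh1l2, the mitochondrial form and an ATF4 target, was at 14.01, 19.15 and 11 FPKM in WT against 14.99, 12.6 and 10 FPKM in the cKO-labelled libraries. It followed the order of the stress targets, with WT replicate 2 the highest (log2 fold change -0.20, SE 0.19, adjusted p = 0.726). The Aldh1l1 to Aldh1l2 ratio was 23.0 ± 5.90 in WT and 26.3 ± 8.55 in the cKO-labelled libraries (SD, n = 3 each). Aldh1l2 shares 1056 bases of annotated transcript with D10Wsu102e, so reads from that stretch may belong to either.

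Other folate genes were lower in mean for 11 of 15 tested, with 2 apart and lower (13.3%, against 10.2% of all genes) and 0 past the threshold. Slc19a1, the reduced folate carrier, was apart and lower, at 10.25, 9.85 and 9.69 FPKM in WT against 7.82, 8.54 and 8.48 FPKM in the cKO-labelled libraries (log2 fold change -0.24, adjusted p = 0.237). Cell cycle markers, such as Mki67, Top2a and Birc5, were lower in mean for all 11 tested, 3 of them apart (27.3%, against 10.2% of all genes apart and lower) and 0 past the threshold, with summed levels of 457 to 516 FPKM in WT and 349 to 474 FPKM in the cKO-labelled libraries. The list shares Tyms, thymidylate synthase, with the other folate genes. The cell cycle list too was chosen with earlier results of these data known, and the part of cell cycling in the folate values was not tested.

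The glycine cleavage system, which splits glycine to supply folate with a carbon and is strong in neural progenitors and astrocytes, was higher in mean for all 3 genes without a call. Gldc, the decarboxylase, was at 23.8, 24.2 and 24.1 FPKM in WT against 23.0, 27.2 and 23.7 FPKM in the cKO-labelled libraries. WT was nearly constant and lay inside the cKO-labelled range (log2 fold change 0.03, adjusted p = 0.910). Amt, the aminomethyltransferase, ranged from 60.9 to 64.3 FPKM in WT and from 57.8 to 68.0 FPKM in the cKO-labelled libraries (adjusted p = 0.876). Gcsh, the lipoyl carrier protein, was at 65.0, 61.4 and 69.3 FPKM in WT against 71.5, 68.7 and 75.9 FPKM in the cKO-labelled libraries. One WT library, replicate 3, lay above the lowest cKO-labelled library, and the level was 110.3% of WT (interval 99.4% to 122%, log2 fold change 0.14, SE 0.07, unadjusted p = 0.0616, adjusted p = 0.435). With the Y-linked covariate it turned to -0.0882.

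In the methionine cycle no gene passed the test. Mat2a, which makes the methyl donor S-adenosylmethionine, was at 254, 244 and 249 FPKM in WT against 237, 261 and 249.9 FPKM in the cKO-labelled libraries. The group means were equal to within the spread, and the interval ran from 90.8% to 111% of WT (log2 fold change 0.00, adjusted p = 0.994). Mtr, methionine synthase, ranged from 5.99 to 6.51 FPKM in WT and from 6.13 to 6.59 FPKM in the cKO-labelled libraries (adjusted p = 0.886).

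Ahcy (chromosome 2, 155059310 to 155074497), which clears S-adenosylhomocysteine, was at 14.9, 20.1 and 17.5 FPKM in WT against 11.9, 14.8 and 15.5 FPKM in the cKO-labelled libraries. The groups overlapped between WT replicate 1 and cKO replicate 3. The level was 81.6% of WT (interval 67.1% to 99.2%, log2 fold change -0.29, SE 0.12, unadjusted p = 0.0433, adjusted p = 0.391). It was -0.19 without WT replicate 2 and also without cKO replicate 1, and -0.0971 with library weights. Ahcy has 3 near copies, of which only Gm4737 had FPKM values. It matches Ahcy at 99.7% over 2083 bases and was at 24.2, 20.7 and 20.9 FPKM in WT against 20.9, 18.6 and 20.9 FPKM in the cKO-labelled libraries (adjusted p = 0.596). The split of reads between the copies is uncertain. Gcsh with 2 near copies and Gpt2, Mat2a and Psat1 with 1 each share this limit. Cebpb shares 320 bases at 99.4% identity with a transcript of Tmem189.

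Transsulfuration, which turns homocysteine into cysteine, had 1 gene of either sign. Cbs, the first enzyme, ranged from 76.1 to 96.5 FPKM in WT and from 68.6 to 97.3 FPKM in the cKO-labelled libraries (adjusted p = 0.810). Cth, the second enzyme and an ATF4 target, was at 3.84, 5.26 and 5.04 FPKM in WT against 6.52, 4.89 and 6.09 FPKM in the cKO-labelled libraries. The highest libraries were cKO-labelled, but cKO replicate 2 lay inside the WT range (log2 fold change 0.26, SE 0.13, unadjusted p = 0.0746, adjusted p = 0.461).

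Of 10 other tested genes of methionine and polyamine metabolism 7 were higher and 3 lower, with 0 past the threshold. Only Sms, spermine synthase, was apart and lower (10%, against 10.2% of all genes). It was at 14.25, 16.9 and 14.9 FPKM in WT against 13.3, 13.1 and 13.3 FPKM in the cKO-labelled libraries (adjusted p = 0.331). Amd1, which starts polyamine synthesis from S-adenosylmethionine, averaged 54.4 ± 2.38 FPKM and 57.2 ± 2.20 FPKM (SD, n = 3 each; limma adjusted p = 0.674).

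Set beside one another, the 3 blocks had median log2 fold changes of -0.15 for the ATF4 genes, 0.06 for serine and proline synthesis and -0.04 for folate, glycine and methionine enzymes. Of the 4 genes that carried the element letters, the log2 fold change was -0.48 for Nupr1, -0.23 for Chac1, 0.01 for Asns and -0.03 for Pycr1, with no call.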

How the data were processed

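Per the file headers the deposited values are FPKM. The submitters' processing notes name Bowtie2 and the build GRCm38 (mm10); the counting tool, annotation and filters were not given in the sources used here. Each column was matched to 1 sample by its group and number. A limma 3.58.1 model (R 4.3.3, lmFit and trended eBayes) was fitted to log2(FPKM + 1) of the 11596 genes averaging at least 1 FPKM, leaving 2731 untested. It compared 3 libraries with 3, two-sided, and p-values were adjusted by Benjamini-Hochberg over these genes. The fit was run on simulated data with independent noise for each gene as a check of the code, and its power for small changes is not given here. An exact permutation test was added for Slc22a17.

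The members and lists were chosen with earlier results of these data known. Every library is given for members apart between groups, the 3 of lowest p in each block, and 16 genes of known role; of other pathway lists the 2 genes of lowest p are named, except 1 that is not reported here. Near copies came from minimap2 2.31-r1302 on the annotated transcripts, promoter windows from RefSeq (GRCm38.p6). Sds, Dld, Cct6a, Gm4737, D10Wsu102e and the values of further members were added after their values were seen. Alternatives covered pseudocounts, filters, scaling, variance models, a block, a Y-linked covariate and leaving out each library. FPKM carries no depth, so precision rests on the spread between libraries.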

Additional observations from a re-analysis of the deposited data

How the results depend on the processing

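The result that none of the 35 genes passed the threshold was the same under all 17 alternatives. Over all genes 3 passed, against 129 with library weights, 0 with no filter, with quantile normalization, with no intensity trend, with the Y-linked covariate and against WT replicate 3 alone, and 0 to 10 when each library was left out. Whether the replicate numbers pair the samples was not settled, and the replicate block gave 22 genes. Correlations of deviations were -0.043, 0.305 and 0.258 for equal numbers. WT replicates 2 and 3 correlated best with their own number, and WT replicate 1 with cKO replicate 2 (0.118). With 3 libraries a group, such correlations cannot show or exclude pairing. Genes of the 35 whose groups do not overlap were 1, against 2 to 10 when a library was left out (24.1% to 31.1% of all genes) and 10 against WT replicate 3 alone, where 48.6% of all genes were apart. The median of the ATF4 block was 0.21 with the Y-linked covariate. That of serine and proline was 0.10 with a mean of at least 5 FPKM, 0.10 with library weights, -0.12 with the Y-linked covariate, 0.011 against WT replicate 3 alone and 0.0356 to 0.122 when a library was left out. That of folate and methionine was -0.0731 to 0.0269 when a library was left out.

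Fold changes under the alternatives were followed for 20 genes, mostly those of lowest p in their block or list. Of these 339 fold changes 14 changed sign. With the Y-linked covariate these were Trib3 (1.29), Ppp1r15a (0.52), Eif4ebp1 (0.21), Cebpg (0.17), Slc38a2 (0.0754), Impact (-0.23), Phgdh (-0.22), Gcsh (-0.0882), Sdsl (-0.0672) and Slc7a11 (-0.0541). Against WT replicate 3 alone they were Trib3 (0.25), Ppp1r15a (0.10) and Cebpg (0.0014). Atf4 ranged from -0.17 to 0.0409 when each library was left out. Among all members of the blocks, the sign held under every alternative only for Gpt2, Psph, Aldh18a1, Shmt1, Shmt2, Mthfd1l, Mtr and Ahcy. For every other member it changed under some alternative, for Pycr1 under 5, and for Sesn2, Asns, Mthfd1 and Aldh1l1 under 4 each. The cause of these changes was not tested. Trib3 was not tested with a mean of at least 5 FPKM.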
